A study of Mus musculus with 33 samples.

Results

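The quadriceps of wild-type mice 24 h after 1 injection of dexamethasone were compared with the quadriceps of wild-type mice 24 h after saline, by sequencing of the RNA of the whole muscle. The comparison holds 9 of the 33 libraries of the series, chosen by their labelled genotype, treatment and time: 5 with dexamethasone and 4 with saline. The mice were adult C57BL6 males, and the treated ones received dexamethasone sodium phosphate intraperitoneally at 20 mg/kg. The series also holds mice that lack Actn3, a fast-fibre alpha-actinin of the Z-disc (called KO here), and muscles taken at 3 h, and its title asks how the Actn3 genotype bears on the response to dexamethasone. From those, 8 wild-type libraries at 3 h (5 dexamethasone, 3 saline) and 8 KO libraries at 24 h (5 and 3) are used below to show where the wild-type 24 h response differs.

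Dexamethasone is a synthetic glucocorticoid. It binds the glucocorticoid receptor, the product of Nr3c1, which then enters the nucleus and raises or lowers the transcription of target genes. In skeletal muscle, glucocorticoids are known for promoting protein breakdown through the ubiquitin-proteasome and autophagy pathways, for opposing insulin and IGF1 signalling, and for shifting fuel use, and in most tissues they dampen inflammation and antigen presentation. Many direct targets respond within hours, so a sample taken a day after a single dose holds the later course of the response.

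Actn3 ranged from 6959 to 9014 CPM (read counts scaled to the TMM-adjusted library size) in the 9 libraries and from 31.9 to 65.9 CPM in the KO libraries at 24 h, as their labels say. Total counts were 20134795 to 35427585 with saline and 25161209 to 33783226 with dexamethasone (exact permutation test, two-sided, p = 0.508, where 0.0159 is the smallest p the design allows). The fibre markers of the muscle (Acta1, Ckm, Ttn, Neb and 6 others) summed to 154411 to 200856 CPM with saline and 162233 to 196671 CPM with dexamethasone, and 0 of 10 changed. Saline replicate 4 and dexamethasone replicate 5 stood apart from the other 7 libraries. They carry names of the series ML1716, the others of the series ML1715. They had the lowest second principal component of the 9 (-18.95 and -37.1, the component holding 19.4% of the variance), and pairs that include one of them differed by a chi-square of 69.9 to 126 per degree of freedom, against 13 to 28 for the other pairs within a group. Dexamethasone replicate 5 was the lowest of the 5 treated libraries in 53.6% of the genes called higher (505 genes) and the highest in 34.3% of those called lower (331 genes). What the names stand for is not given in the sources used here, so values without the ML1716 libraries are given beside genes for which these libraries stood out most. Those fits leave out all 5 ML1716 libraries among the 33, KO ones included. Replicates below are in the order 1 to 4 for saline and 1 to 5 for dexamethasone. Log2 differences are dexamethasone over saline with their standard error, and adjusted p-values come from edgeR's quasi-likelihood test over all 13955 genes tested. A gene rose or fell where its adjusted p was under 0.05, and "lost without" names each library whose removal took the adjusted p past that threshold. Exon overlaps with other genes are named where they are large, since the libraries keep no strand. How reads from shared bases were counted is not given. The labels do not say that each library came from a separate animal, so p-values measure the spread between these samples.

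At 24 h, 1908 genes differed between dexamethasone and saline, 13.7% of those tested: 942 rose (6.75%) and 966 fell (6.92%). These shares are the yardstick for all counts of list members below. The median log2 difference was 0.446 among genes that rose and -0.699 among genes that fell, against -0.00977 over all genes tested. In 1194 of the called genes the 5 treated and 4 saline libraries did not overlap, and 1649 of all genes tested (11.8%) had no overlap. Of the called genes 888 kept their call whichever of the 9 libraries was left out, 468 higher and 420 lower. Without saline replicate 3 only 1228 genes were called (574 higher, 654 lower). Without the ML1716 libraries (5 over the whole series) 1616 of the calls (84.7%) remained among 2141, and 1904 of the 1908 kept their direction. Scaling by library totals alone moved the median of all genes to -0.0506 and gave 677 higher and 1073 lower.

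**Figure D1:**
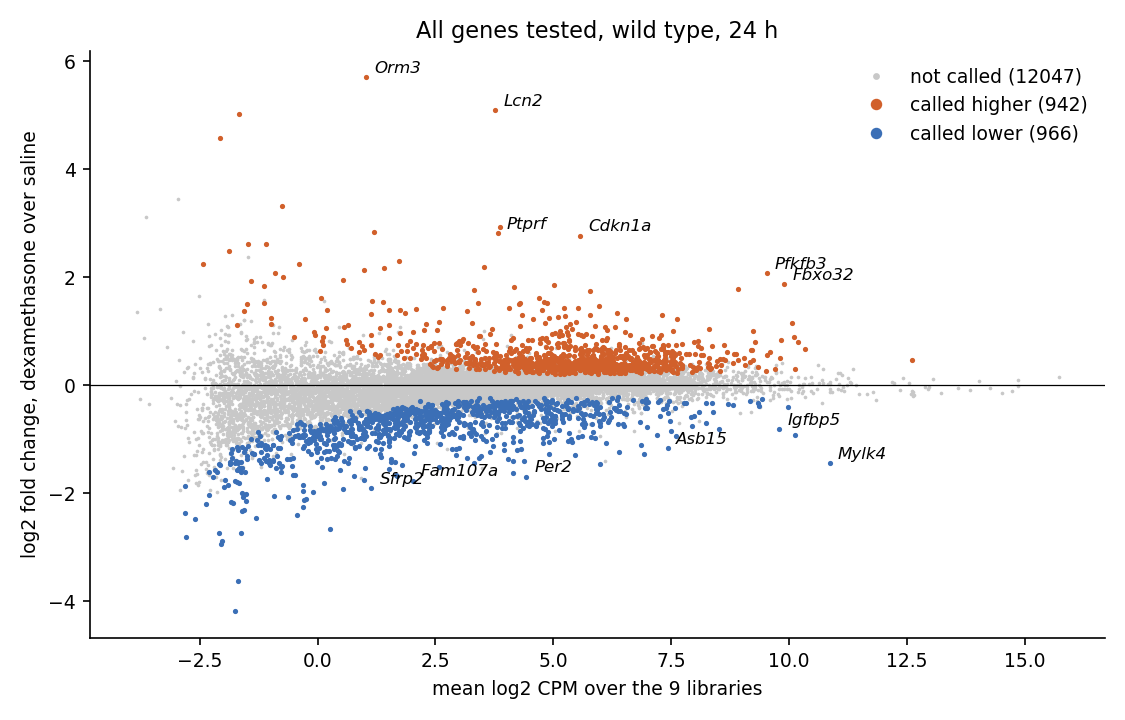
Each point is 1 of 13955 genes, with the mean log2 CPM over the 9 libraries on the x axis and the log2 fold change of dexamethasone over saline on the y axis; the 942 genes called higher are orange, the 966 called lower blue and the rest grey. Orm3 and Lcn2 lie above 5 log2 units, while abundant genes such as Fbxo32, Pfkfb3 and Mylk4 changed by between 1 and 3.

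Among called genes with a mean log2 CPM of 1 or more, no overlap of the groups and a call whichever library was left out, the largest rises joined secreted stress proteins, a methyl-group enzyme, metal-binding proteins and signalling molecules. Orm3, a member of the orosomucoid family of acute-phase plasma proteins, was at 0.144, 0.355, 0.274 and 0.0911 CPM with saline and 9.93, 13.9, 5.52, 6.27 and 24.8 CPM with dexamethasone. Every treated library was more than 10 times above every saline library, and Orm3 rose by 5.70 ± 0.64, adjusted p = 1.66e-06 (chr4:63356162-63359511, plus strand). Lcn2, which encodes the iron-siderophore carrier lipocalin 2, was at 1.26, 3.22, 1.37 and 2.23 CPM with saline and 99.6, 53.4, 43.2, 51.7 and 95.5 CPM with dexamethasone, again with no overlap. Gnmt, the enzyme that uses S-adenosylmethionine to methylate glycine, was at 0.539, 2.58, 1.12 and 1.46 CPM with saline and 9.9, 5.76, 5.3, 7.46 and 6.68 CPM with dexamethasone. The lowest treated library lay above the highest saline one, and the difference was 2.30 ± 0.34, adjusted p = 3.18e-05 (chr17:46725664-46729168, minus strand). Cdkn1a, the cell-cycle inhibitor p21, was at 31.4, 20.1, 9.52 and 10.2 CPM with saline and 186, 125, 110.5, 131 and 55.8 CPM with dexamethasone. Its treated and saline libraries did not overlap, and dexamethasone replicate 5 was the lowest of the 5. Ptprf, a receptor tyrosine phosphatase, was at 4.75, 4.93, 5.21 and 4.24 CPM with saline and 41.5, 34, 29.4, 31.6 and 32.2 CPM with dexamethasone, with a narrow spread in each group.

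Pfkfb3, whose product makes the sugar bisphosphate that switches on phosphofructokinase, was at 235, 217, 572 and 382 CPM with saline and 1340, 1757, 1910, 1679 and 762 CPM with dexamethasone. It was among the 8 genes that gained most CPM, its groups did not overlap, and dexamethasone replicate 5 was the lowest treated library. The difference was 2.08 ± 0.39, adjusted p = 6.34e-04 (chr2:11471433-11554077, minus strand). The serine/threonine kinase gene Pim1 was at 8.34, 12.9, 8.72 and 6.88 CPM with saline and 25.8, 31.9, 37.9, 48.5 and 19.6 CPM with dexamethasone and rose by 1.82 ± 0.21, adjusted p = 8.23e-07. A pair of receptor genes of the tumour necrosis factor family rose together. Eda2r, the ectodysplasin receptor, was at 33.4, 38.2, 28.3 and 18.2 CPM with saline and 105, 129, 128, 89 and 43.7 CPM with dexamethasone (1.74 ± 0.25, adjusted p = 2.37e-05). Tnfrsf19 was at 13.3, 12.8, 20.2 and 11.1 CPM with saline and 37.7, 55.8, 61.2, 38.1 and 28.4 CPM with dexamethasone (1.61 ± 0.21, adjusted p = 6.09e-06). Neither gene's groups overlapped, and dexamethasone replicate 5 was again the lowest of the treated libraries. Plin5, a coat protein of lipid droplets in oxidative tissue, was at 15.5, 11.6, 15.2 and 21.5 CPM with saline and 55.9, 40.6, 34, 35.9 and 65 CPM with dexamethasone (1.54 ± 0.31, adjusted p = 0.0012). Slc27a3, of the fatty acid transport protein family, was at 1.26, 1.13, 1.04 and 1.41 CPM with saline and 2.41, 2.86, 3.33, 3.4 and 5.78 CPM with dexamethasone (1.57 ± 0.25, adjusted p = 4.84e-05). In both, dexamethasone replicate 5 was the highest library and no library of the groups overlapped. Depp1, an autophagy-linked target of FoxO that the files list as 8430408G22Rik, was at 4.21, 6.19, 4.86 and 6.33 CPM with saline and 45.7, 75.8, 45.7, 30.3 and 7.32 CPM with dexamethasone and rose by 2.92 ± 0.48, adjusted p = 1.77e-04. Its lowest treated library, dexamethasone replicate 5, lay just above the highest saline library, and the log2 difference was 3.28 without the ML1716 libraries.

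Under the same conditions on level, overlap and left-out libraries, the largest falls took in muscle kinase and myosin-binding genes, MHC class II genes, a hypoxia factor and an amino acid transporter. Mylk4, a striated muscle member of the myosin light chain kinase family, lost more CPM than any other called gene, at 3208, 3752, 3931 and 2306 CPM with saline and 970.5, 1174, 1382, 1087 and 1441 CPM with dexamethasone. The highest treated library lay below the lowest saline library, and the log2 difference was -1.45 ± 0.20, adjusted p = 8.69e-06 (chr13:32700834-32783954, minus strand). Mybph, myosin-binding protein H, was at 144, 106, 86 and 119.7 CPM with saline and 39.6, 26.5, 37.9, 55.6 and 46.7 CPM with dexamethasone (-1.46 ± 0.31, adjusted p = 0.00201). Its groups did not overlap, but 49.9% of its exon bases overlap Adora1. Whether reads from those bases were counted for Mybph, for Adora1 or for neither is not given. Hif3a, a member of the hypoxia-inducible factor family, was at 5.97, 7.71, 3.32 and 3.96 CPM with saline and 1.9, 2.15, 2.12, 1.33 and 1.48 CPM with dexamethasone (-1.55 ± 0.21, adjusted p = 6.44e-06). Slc7a8, a neutral amino acid transporter, was at 40.6, 35.4, 23.9 and 15.4 CPM with saline and 13, 11.3, 9.03, 10.1 and 12.4 CPM with dexamethasone (-1.37 ± 0.18, adjusted p = 6.09e-06). In neither did the groups overlap, and both genes rose at 3 h. Efcab6, an EF-hand gene, was at 14.3, 12.5, 17.8 and 15.9 CPM with saline and 6.65, 5.45, 5.77, 5.73 and 6.04 CPM with dexamethasone, with treated libraries close together and no overlap (-1.35 ± 0.13, adjusted p = 1.28e-08). Among the other leading falls, each without overlap, were the cadherin Cdh4 (-1.44 ± 0.31, adjusted p = 0.00249), the carboxypeptidase-family gene Cpxm1 (-1.42 ± 0.24, adjusted p = 1.55e-04), Golga7b (-1.66 ± 0.31, adjusted p = 4.46e-04), and the interferon-inducible GTPase Tgtp2 (-1.53 ± 0.30, adjusted p = 6.68e-04), whose reads may be split with its near-identical copy Tgtp1. The Wnt antagonist Sfrp2 was at 3.24, 3.67, 7.82 and 3.74 CPM with saline and 1.56, 1.37, 0.824, 1.3 and 1.1 CPM with dexamethasone, where saline replicate 3 stood far above the other saline libraries. Fam107a was at 7.7, 9.19, 7.46 and 7.2 CPM with saline and 2.08, 3.06, 1.76, 2.36 and 2.38 CPM with dexamethasone, and the groups were well apart. The clock repressor Per2 was at 39.1, 47.3, 45.9 and 33.2 CPM with saline and 14.1, 12.6, 12.9, 10.9 and 13.6 CPM with dexamethasone, again well apart.

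**Figure D2:**
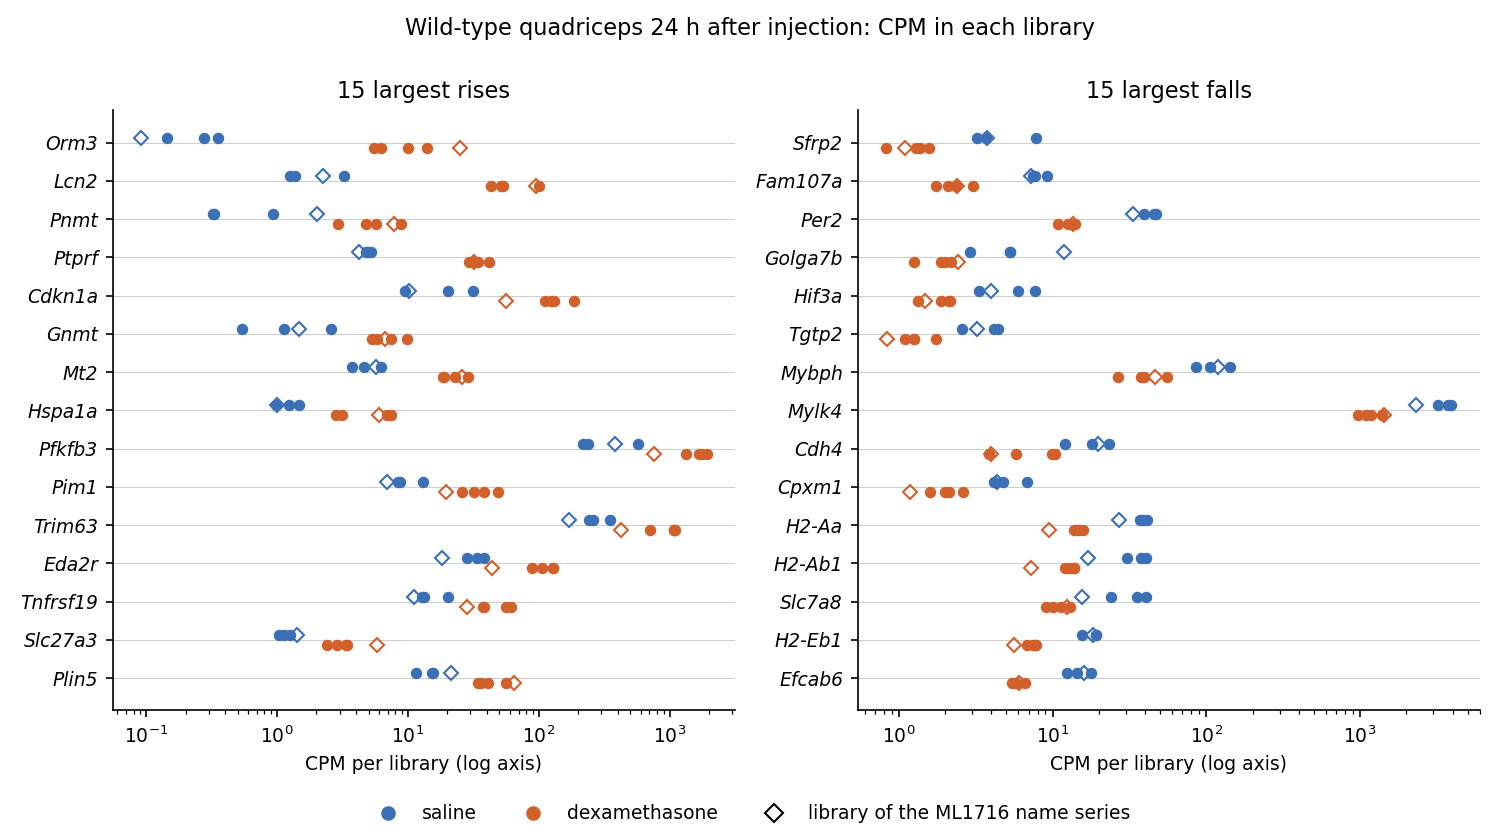
CPM in each of the 9 libraries (x axis, log scale) for the 15 genes with the largest rises (left) and the 15 with the largest falls (right) among called genes of adequate level without overlap of the groups and called whichever library was left out; saline is blue, dexamethasone orange, and open diamonds are the 2 ML1716 libraries. For each gene the blue and orange symbols are separate, and the orange diamond, dexamethasone replicate 5, is often nearest to the saline values among the rises, as for Eda2r (43.7 CPM) and Pim1 (19.6 CPM).

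By amount of RNA, the genes that gained most CPM were Pde4dip, Fbxo32, Pfkfb3, Pdk4, Tacc2, Hspa8, Trim63 and Neat1. Pde4dip, which encodes the scaffold protein myomegalin, was at 6521, 5377, 5043 and 4081 CPM with saline and 7972, 7197, 8215, 7590 and 5425 CPM with dexamethasone. Its groups overlapped, since saline replicate 1 was above dexamethasone replicate 5 (0.47 ± 0.14, adjusted p = 0.0167, lost without saline replicate 3 or 4). Tacc2, a coiled-coil protein gene, was at 1032, 816, 800.4 and 518 CPM with saline and 1652, 1422, 1721, 1261 and 1283 CPM with dexamethasone. All treated libraries lay above all saline ones (0.89 ± 0.19, adjusted p = 0.00132). Neat1, the long noncoding RNA around which paraspeckles form, was at 1073, 912, 1087 and 940.5 CPM with saline and 1680, 1562, 1513, 1412 and 1846 CPM with dexamethasone. The lowest treated library was above the highest saline one (0.68 ± 0.15, adjusted p = 0.0017). Pdk4, the kinase that shuts off pyruvate dehydrogenase, was at 624.7, 777, 1061 and 556 CPM with saline and 1710, 2837, 2334, 730.2 and 767 CPM with dexamethasone. Dexamethasone replicates 1 to 3 were far above saline, replicates 4 and 5 were within the saline range, and the call was fragile (1.15 ± 0.37, adjusted p = 0.0353, lost without dexamethasone replicate 1, 2 or 3 or saline replicate 1, 2 or 4). Without the ML1716 libraries the log2 difference was 1.22 with an adjusted p of 0.0525.

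Besides Mylk4, the genes that lost most CPM were Car3, Igfbp5, Ampd1, Hk2, Gpd1, Eef1a1 and Asb15. Igfbp5, a binding protein of insulin-like growth factors, was at 1408, 1099, 1385 and 1047 CPM with saline and 721, 884, 772, 721 and 436 CPM with dexamethasone, with all 5 treated libraries below all 4 saline ones (-0.81 ± 0.21, adjusted p = 0.0103). Car3, the carbonic anhydrase of muscle and fat, was at 1617, 1536, 2134 and 1275 CPM with saline and 1183, 949, 809.5, 772 and 595 CPM with dexamethasone. All treated libraries lay below all saline ones (-0.93 ± 0.24, adjusted p = 0.0102, lost without saline replicate 3). Hk2, the hexokinase that traps glucose in muscle, was at 507, 516, 544 and 422 CPM with saline and 305, 259, 262, 269.9 and 327 CPM with dexamethasone. The highest treated library was below the lowest saline one (-0.81 ± 0.16, adjusted p = 7.82e-04). Asb15, a SOCS-box substrate adaptor of ubiquitin ligases, was at 233, 318, 266 and 283 CPM with saline and 118, 148, 149, 122 and 75.4 CPM with dexamethasone, with dexamethasone replicate 5 the lowest (-1.17 ± 0.19, adjusted p = 8.4e-05). Smaller falls were those of the elongation factor Eef1a1 (-0.34 ± 0.0862, adjusted p = 0.00728, lost without saline replicate 2), glycerol-3-phosphate dehydrogenase Gpd1 (-0.38 ± 0.11, adjusted p = 0.0237, lost without dexamethasone replicate 2 or 3 or saline replicate 1) and the muscle AMP deaminase Ampd1 (-0.40 ± 0.13, adjusted p = 0.0276, lost without dexamethasone replicate 2, 3 or 5 or saline replicate 1 or 3; its log2 difference ranged from -0.51 to -0.25 over these fits).

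Several ligases that tag muscle proteins for breakdown rose. Of the muscle ubiquitin ligases 9 rose and 0 fell of 21 (median log2 difference 0.16), against 6.75% of all genes rising; without saline replicate 3 the count was 5 and 0. Fbxo32, the F-box ligase atrogin-1, was at 533, 699.7, 543 and 247 CPM with saline and 2035, 2192, 2459, 1930 and 603 CPM with dexamethasone. Dexamethasone replicates 1 to 4 were far above saline and replicate 5 was inside the saline range. The log2 difference was 1.87 with all 9 libraries and 1.87 without the ML1716 libraries. Trim63, the RING ligase MuRF1 that marks myosin and other sarcomere proteins, was at 261, 348, 240.2 and 169.6 CPM with saline and 1102, 1080, 1070, 702 and 422 CPM with dexamethasone, with no overlap. Its relative Trim54 (MuRF3) was at 511, 432, 470 and 345 CPM with saline and 697, 591, 608, 640.5 and 574 CPM with dexamethasone. It rose by 0.50 ± 0.11, adjusted p = 0.00208; 26.6% of its exon bases overlap Gm15469. Klhl38 was at 62.2, 82.5, 87.3 and 37 CPM with saline and 151, 167, 165, 130.5 and 52.3 CPM with dexamethasone, where dexamethasone replicate 5 was below 3 of the saline libraries (0.98 ± 0.32, adjusted p = 0.039, lost without dexamethasone replicate 1, 2, 3 or 4 or saline replicate 1 or 4; 0.99 without the ML1716 libraries; 65.4% of its exon bases overlap Gm15943). The other ligases that rose did so by less than 1 log2 unit, among them Fbxo30, Mdm2 (0.36 ± 0.0991, adjusted p = 0.013, lost without saline replicate 3), Ubr2 (0.33 ± 0.0926, adjusted p = 0.0148, lost without dexamethasone replicate 1 or saline replicate 3 or 4) and Nedd4 (0.26 ± 0.075, adjusted p = 0.0169, lost without dexamethasone replicate 3 or saline replicate 3 or 4). Among the FoxO factors, the transcription factors that switch on atrophy genes, 0 rose and 2 fell of 4: Foxo1 and Foxo6 (-1.06 ± 0.25, adjusted p = 0.00328).

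In the proteasome, the protease that degrades ubiquitin-tagged proteins, the rises were small and went 1 way. Of the genes of its 20S catalytic core 3 rose and 0 fell of 14, where 6.75% of all genes rose. The median was 0.17, and 13 of the 14 had a positive log2 difference. Psma4 was at 82.6, 84.3, 82 and 88.2 CPM with saline and 103, 111, 123, 108 and 99.6 CPM with dexamethasone. No treated library reached down to saline (0.37 ± 0.10, adjusted p = 0.0144). Psmb2 was at 56.5, 53.8, 62 and 52.3 CPM with saline and 73.4, 72.8, 73, 67 and 61.7 CPM with dexamethasone, where saline replicate 3 was just above dexamethasone replicate 5 (0.31 ± 0.0844, adjusted p = 0.012). The third was Psmb1 (0.37 ± 0.12, adjusted p = 0.0403, lost without dexamethasone replicate 1, 2, 3 or 5 or saline replicate 1, 2 or 3). Of the 19S cap, which recognises and unfolds substrates, 6 rose and 0 fell of 18 with a median of 0.23, and all 18 values were positive, as for the ATPase subunit Psmc6 (0.34 ± 0.0928, adjusted p = 0.0122). The count in the 2 lists was 7 of 14 and 11 of 18 without the ML1716 libraries, and 1 and 3 with library totals alone. Ddi2, the protease that activates the proteasome-inducing factor NRF1 (the product of Nfe2l1), was at 27.3, 27, 26 and 24.1 CPM with saline and 47.3, 69.2, 73.4, 53.1 and 32.1 CPM with dexamethasone. Treated libraries exceeded every saline library (1.07 ± 0.18, adjusted p = 1.31e-04). Nfe2l1 itself was at 1142, 1010, 986 and 855 CPM with saline and 1277, 1220, 1262, 1240 and 1144 CPM with dexamethasone (0.30 ± 0.0941, adjusted p = 0.0293, lost without dexamethasone replicate 1 or 3 or saline replicate 2, 3 or 4). Of the immunoproteasome 0 rose and 1 fell of 5. Psmb9, its interferon-inducible catalytic subunit, was the fall, at 1.83, 3.13, 2.91 and 2.92 CPM with saline and 1.44, 1.65, 1.61, 1.91 and 1.34 CPM with dexamethasone (-0.76 ± 0.19, adjusted p = 0.0068). Among ubiquitin, its conjugating enzymes and shuttles 5 rose and 1 fell of 27. Usp2, a clock-linked deubiquitinase, was the fall, at 300.3, 281, 274 and 266 CPM with saline and 156, 138, 123, 136 and 172 CPM with dexamethasone, with a clear gap between the groups (-0.95 ± 0.0979, adjusted p = 5.89e-08). The shuttle Ubqln1 (0.40 ± 0.0864, adjusted p = 0.00163) was among the rises.

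Of 30 autophagy genes 8 rose and 0 fell (median 0.13), against 6.75% of all genes rising. The count was 5 and 0 without saline replicate 3 or without dexamethasone replicate 3. Atg13, a subunit of the kinase complex that starts autophagosomes, was at 46.2, 41, 40.6 and 35.1 CPM with saline and 61.8, 66.9, 68.1, 64.2 and 57.9 CPM with dexamethasone. All treated libraries lay above all saline ones (0.65 ± 0.0824, adjusted p = 3.28e-06). Wipi2, which recruits the conjugation machinery to the membrane, rose by 0.31 ± 0.0713, adjusted p = 0.00311, the mitophagy receptor Bnip3 by 0.57, and the autophagosome protein gene Gabarapl1 by 0.52 ± 0.16, adjusted p = 0.0238, lost without dexamethasone replicate 2 or 3 or saline replicate 3 or 4; 28.3% of the exon bases of Gabarapl1 overlap a neighbouring gene. Lysosomal genes split: 3 rose and 5 fell of 24 tested (2 rose and 3 fell without saline replicate 2). The protease gene Ctsl, known to rise in wasting muscle, rose, while proteases abundant in phagocytes fell. Ctss was at 13.7, 32.3, 15.6 and 21.5 CPM with saline and 9.09, 8.54, 8.42, 9.34 and 12 CPM with dexamethasone, with saline replicate 2 the highest and no overlap (-1.13 ± 0.22, adjusted p = 5.95e-04). Ctsh was at 12.7, 17.5, 15.6 and 12.2 CPM with saline and 12, 10.6, 9.96, 8.88 and 7.03 CPM with dexamethasone, where the lowest saline library was just above the highest treated one (-0.59 ± 0.13, adjusted p = 0.00294). Lgmn (-0.56 ± 0.13, adjusted p = 0.00384) and Grn (-0.44 ± 0.11, adjusted p = 0.0085, lost without saline replicate 2) fell as well.

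Of 41 genes for chaperones and their partners 10 rose and 0 fell, where 6.75% of all genes rose. The log2 difference was positive in 36 of 41, and the median was 0.26. Without the ML1716 libraries 7 rose and 0 fell. In the mouse, stress-inducible chaperone genes are known to be driven by the factor HSF1 at heat shock elements near their start, and for that reason the promoter windows of 4 members that rose are shown. They were picked because they hold that motif. Of the 7 members that rose and have a window, 5 hold it, and Cct3 and Cct6a do not. Each window runs from 250 bases before to 50 after the RefSeq start (GRCm38.p6), 5′ to 3′ on the gene's strand, and capitals mark the letters GAANNTTC, searched on both strands (the motif reads the same on both). They are Hspa1a at chr17:34972107-34972406 (minus strand), Hspb1 at chr5:135887669-135887968 (plus strand), Dnaja1 at chr4:40722218-40722517 (plus strand, 1 of its 3 windows) and Chordc1 at chr9:18292017-18292316 (plus strand).
Hspa1a: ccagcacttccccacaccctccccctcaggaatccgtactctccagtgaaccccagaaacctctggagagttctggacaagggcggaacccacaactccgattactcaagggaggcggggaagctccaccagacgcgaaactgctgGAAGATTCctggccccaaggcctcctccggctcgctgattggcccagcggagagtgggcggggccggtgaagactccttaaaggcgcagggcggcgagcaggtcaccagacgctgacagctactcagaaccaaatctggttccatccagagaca
Hspb1: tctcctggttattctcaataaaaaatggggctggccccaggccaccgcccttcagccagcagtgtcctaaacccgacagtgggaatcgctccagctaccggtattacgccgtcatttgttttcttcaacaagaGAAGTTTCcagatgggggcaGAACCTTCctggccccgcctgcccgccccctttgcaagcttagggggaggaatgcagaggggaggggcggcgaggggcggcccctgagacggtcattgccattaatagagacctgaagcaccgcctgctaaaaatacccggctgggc
Dnaja1: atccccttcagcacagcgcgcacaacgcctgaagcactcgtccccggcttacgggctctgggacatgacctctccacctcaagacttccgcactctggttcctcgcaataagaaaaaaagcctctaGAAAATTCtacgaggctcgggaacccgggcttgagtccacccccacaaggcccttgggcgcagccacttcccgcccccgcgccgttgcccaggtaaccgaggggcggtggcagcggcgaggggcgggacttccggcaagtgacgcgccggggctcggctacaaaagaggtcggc
Chordc1: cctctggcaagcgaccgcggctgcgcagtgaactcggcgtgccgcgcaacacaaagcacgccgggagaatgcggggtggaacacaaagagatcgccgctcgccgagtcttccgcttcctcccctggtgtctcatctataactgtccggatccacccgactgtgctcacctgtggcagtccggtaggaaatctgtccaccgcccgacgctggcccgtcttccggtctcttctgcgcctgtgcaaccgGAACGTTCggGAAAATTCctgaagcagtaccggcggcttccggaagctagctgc
Counted from the start, the matches begin at -104 in Hspa1a, at -117 and -97 in Hspb1, at -124 in Dnaja1, and at -4 and 6 in Chordc1. A window with this motif was found for 14 of the 33 members with a window in the RefSeq table. The motif stood in 7.9% of all 32851 windows, and in at least 1 window of 7.2% of the 10330 tested genes that matched, 7.3% of the 723 matched genes that rose and 6.6% of the 723 that fell. A match is a run of letters and not a measured binding site.

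Hspa1a, the main stress-inducible HSP70 gene whose window is printed above, was at 1.47, 1.23, 0.988 and 1 CPM with saline and 7.4, 3.13, 2.83, 6.88 and 6.04 CPM with dexamethasone. The lowest treated library was about 2 times the highest saline one (2.17 ± 0.55, adjusted p = 0.00892). Its near-identical copy Hspa1b was at 0.683, 1.51, 1.59 and 1.14 CPM with saline and 5.2, 2.58, 2.19, 4.55 and 3.81 CPM with dexamethasone and missed the threshold (1.56 ± 0.55, adjusted p = 0.0606), and the counting could split reads between the pair. Hspb1, the small heat shock protein that protects actin and desmin filaments, was at 39.2, 32.7, 43.8 and 34.7 CPM with saline and 94.5, 67.1, 62.8, 102 and 190.4 CPM with dexamethasone, highest in dexamethasone replicate 5 (1.46 ± 0.37, adjusted p = 0.00878; 1.08 without the ML1716 libraries). Hspa8, the constitutive HSP70, was at 1072, 859.7, 785 and 769.8 CPM with saline and 1625, 1340, 1443, 1472 and 1673 CPM with dexamethasone. The groups did not overlap (0.79 ± 0.14, adjusted p = 2.63e-04). Hsp90aa1, the inducible HSP90, was at 58, 55.5, 46.3 and 56.1 CPM with saline and 88.6, 80, 85.8, 119 and 195 CPM with dexamethasone, no overlap, and its call was lost in 2 fits (1.07 ± 0.30, adjusted p = 0.0162, lost without dexamethasone replicate 5 or saline replicate 3). Without the ML1716 libraries the log2 difference was 0.81 with an adjusted p of 0.101. Dnaja1, an HSP70 co-chaperone, was at 35.7, 28.7, 28.1 and 30.5 CPM with saline and 46.5, 40.2, 46.1, 57 and 55.5 CPM with dexamethasone (0.68 ± 0.15, adjusted p = 0.00263). Chordc1, an HSP90 co-chaperone, was at 63.9, 55.9, 53.3 and 55.4 CPM with saline and 71.5, 79, 90.3, 85.7 and 104 CPM with dexamethasone (0.59 ± 0.12, adjusted p = 6.09e-04), neither with overlap. The remaining rises were 4 subunits of the TRiC chaperonin, which folds actin and tubulin: Cct2 (0.27 ± 0.0779, adjusted p = 0.0189, lost without dexamethasone replicate 3 or saline replicate 4), Cct3 (0.42 ± 0.11, adjusted p = 0.0111), Cct4 (0.36 ± 0.0957, adjusted p = 0.0104) and Cct6a (0.36 ± 0.12, adjusted p = 0.0444, lost without dexamethasone replicate 3, 4 or 5 or saline replicate 2, 3 or 4, with 0.22 as the lowest log2 difference in these fits). Ptges3, the HSP90 co-chaperone p23 that holds the glucocorticoid receptor ready for hormone, was counted with the receptor's regulators and was at 30.1, 30.3, 26.1 and 25 CPM with saline and 40.6, 43.4, 52.8, 50.2 and 53.7 CPM with dexamethasone (0.79 ± 0.15, adjusted p = 5.65e-04).

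Of 28 textbook glucocorticoid receptor targets 10 rose and 4 fell at 24 h (median 0.12), against 23 and 0 of the same genes at 3 h, where 6.76% of all genes rose and 8.09% fell. Besides Lcn2, Pnmt, Cdkn1a and Mt2, the receptor's own co-chaperone Fkbp5 was at 126, 123, 45.1 and 104 CPM with saline and 304, 250.3, 234, 216 and 223 CPM with dexamethasone. Saline replicate 3 was the lowest of all and the groups did not overlap (1.30 ± 0.23, adjusted p = 3.44e-04). A pair of metallothionein genes, whose products buffer zinc and copper, rose. Mt2 was at 3.7, 6.25, 4.61 and 5.65 CPM with saline and 28.6, 18.5, 22.9, 18.9 and 26.1 CPM with dexamethasone (2.19 ± 0.39, adjusted p = 3.23e-04; 73.5% of its exon bases overlap Gm45774). Mt1 was at 9.96, 16.9, 11.6 and 10.8 CPM with saline and 34.8, 30.9, 25.3, 26.3 and 35.5 CPM with dexamethasone (1.31 ± 0.31, adjusted p = 0.00537), and neither gene's groups overlapped. Of 15 metallothionein and zinc transporter genes 4 rose and 1 fell, the fall being Mt3 (-1.36 ± 0.36, adjusted p = 0.00878, lost without saline replicate 2 or 3). The zinc exporter gene Slc30a2 was at 25.2, 19.6, 14.3 and 26.5 CPM with saline and 49.9, 48.3, 44.1, 47.7 and 65.4 CPM with dexamethasone (1.26 ± 0.16, adjusted p = 3.84e-06). The importer gene Slc39a14 was at 19, 22.4, 16.4 and 19.5 CPM with saline and 54.4, 35.3, 31, 26 and 28.9 CPM with dexamethasone (0.86 ± 0.21, adjusted p = 0.00688), highest in dexamethasone replicate 1. The targets that fell at 24 h were Per1, Hif3a, Sgk1 (-0.93 ± 0.28, adjusted p = 0.0261, lost without dexamethasone replicate 1, 2, 3 or 4 or saline replicate 2, 3 or 4) and Ddit4. Per1 was at 116, 81.2, 88.5 and 63 CPM with saline and 44.2, 46.5, 48.2, 37.4 and 46 CPM with dexamethasone (-0.97 ± 0.18, adjusted p = 4.45e-04). The receptor gene Nr3c1 was at 137, 119.8, 120.3 and 118 CPM with saline and 126, 141, 157, 140.2 and 116 CPM with dexamethasone, overlapping between the groups (0.13 ± 0.11, adjusted p = 0.456). Among the genes of hormone supply and receptor cofactors 4 rose and 2 fell of 13, with Fkbp5, Hsp90aa1, Ptges3 and the coactivator Ncoa1 (0.71 ± 0.10, adjusted p = 2.1e-05) higher. Hsd11b1, the enzyme that regenerates active glucocorticoid (-0.68 ± 0.16, adjusted p = 0.00331), and the corepressor Nrip1 (-0.87 ± 0.14, adjusted p = 4.91e-05) were lower.

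The core clock genes differed in 2 directions. Of the repressor arm 1 rose and 3 fell of 11 tested: Per1, Per2 and Per3 (-0.68 ± 0.18, adjusted p = 0.0113) fell and Nr1d1 rose. Nr1d1, which encodes REV-ERB alpha, was at 191, 93, 119 and 103 CPM with saline and 292, 294, 301, 370.2 and 220.4 CPM with dexamethasone. Every dexamethasone library was the higher (1.22 ± 0.22, adjusted p = 4.03e-04). Of the activators and output factors 3 rose and 3 fell of 9 (2 rose and 1 fell without dexamethasone replicate 3). Arntl, which encodes BMAL1, was at 18.7, 11, 7.49 and 8.79 CPM with saline and 36.3, 34.3, 40.3, 39 and 15.6 CPM with dexamethasone, where dexamethasone replicate 5 was below saline replicate 1 (1.53 ± 0.32, adjusted p = 0.00197; 1.61 without the ML1716 libraries), and its partner Clock rose by 1.09. The output factors Hlf (-0.64 ± 0.14, adjusted p = 0.00186) and Dbp (-0.86 ± 0.27, adjusted p = 0.0327, lost without dexamethasone replicate 1, 2, 3 or 4 or saline replicate 2, 3 or 4) were lower. The labels give no hour of the day for any sample.

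Growth signalling genes moved in both directions. Ddit4, which encodes the mTORC1 inhibitor REDD1, was at 10.4, 18.7, 5.92 and 19.1 CPM with saline and 5.32, 6.23, 3.26, 4.3 and 8.25 CPM with dexamethasone. The groups overlapped through saline replicate 3, and all 5 treated libraries were below the other saline libraries (-1.29 ± 0.31, adjusted p = 0.00515). Its paralog Ddit4l was at 208, 230, 230.4 and 202 CPM with saline and 461, 551, 521, 489 and 219 CPM with dexamethasone, far above saline in 4 treated libraries and inside the saline range in replicate 5 (1.04 ± 0.26, adjusted p = 0.00814; 1.19 without the ML1716 libraries). Sesn1, a sestrin that restrains mTORC1 when leucine is scarce, was at 28.7, 28.5, 24.2 and 23 CPM with saline and 61.8, 68, 51.8, 39.1 and 27.3 CPM with dexamethasone, and dexamethasone replicate 5 again lay inside the saline range (0.93 ± 0.20, adjusted p = 0.00174; 1.03 without these libraries). Eif4ebp1, the translation repressor that mTORC1 inactivates, was at 19.5, 38.6, 29.1 and 19.1 CPM with saline and 47.7, 49.4, 43, 39 and 39.2 CPM with dexamethasone. All treated libraries lay above all saline ones (0.71 ± 0.16, adjusted p = 0.00309). In all 3 rose and 2 fell of 14 genes of this list. Of the insulin and IGF pathway 7 rose and 4 fell of 28. The rises took in receptors, a receptor substrate and signalling proteins that act after them. Insr was at 138, 129.6, 109 and 95.5 CPM with saline and 174, 175, 207, 182 and 155 CPM with dexamethasone (0.60 ± 0.10, adjusted p = 1.42e-04). Irs1, the substrate, was at 69.3, 68.5, 63.1 and 52.7 CPM with saline and 107, 100.1, 117, 106 and 93.1 CPM with dexamethasone (0.73 ± 0.15, adjusted p = 0.00126; 30.9% of exon bases overlap Gm9747). Pik3ca, a lipid kinase, was at 99.7, 90.4, 84.2 and 74.2 CPM with saline and 141, 138, 165, 140.1 and 112 CPM with dexamethasone (0.68 ± 0.11, adjusted p = 8.4e-05). None of these had an overlap between the groups, and with them rose Pdpk1 (0.52 ± 0.0876, adjusted p = 9.91e-05), Gsk3b (0.75 ± 0.15, adjusted p = 6.86e-04), Igf1r (0.59 ± 0.18, adjusted p = 0.0241, lost without dexamethasone replicate 3 or 4 or saline replicate 3 or 4) and Rheb (0.37 ± 0.11, adjusted p = 0.0169, lost without saline replicate 3). Grb14, an adaptor that inhibits the insulin receptor, was at 12.8, 11, 17.2 and 19.1 CPM with saline and 7.16, 7.56, 6.59, 6.64 and 9.18 CPM with dexamethasone (-1.01 ± 0.19, adjusted p = 3.62e-04), with no overlap. The other falls were the binding proteins Igfbp5 and Igfbp4 (-0.53 ± 0.11, adjusted p = 0.00153), and Igf2 (-0.39 ± 0.10, adjusted p = 0.00971, lost without saline replicate 2; 64.5% of its exon bases overlap other genes).

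Mstn, which encodes the muscle growth inhibitor myostatin, was at 152, 131, 87.1 and 86.2 CPM with saline and 184, 196, 211, 168 and 132 CPM with dexamethasone. Saline replicate 1 was above dexamethasone replicate 5, and the other saline libraries were below all treated ones (0.64 ± 0.16, adjusted p = 0.00656). Of the myostatin and activin system 3 rose and 1 fell of 17. Tgfbr1, a type I receptor that myostatin can use, was at 49.3, 49.3, 36.9 and 44.7 CPM with saline and 62.5, 75.5, 81.6, 71 and 62 CPM with dexamethasone (0.65 ± 0.11, adjusted p = 2.18e-04), without overlap, and the shared signal carrier Smad4 rose by 0.39 ± 0.0848, adjusted p = 0.00186. Acvr1b, the other type I receptor, fell, at 72.2, 95.2, 90 and 82.6 CPM with saline and 53.5, 58.2, 61.8, 55.7 and 53.4 CPM with dexamethasone. No treated library reached up to saline (-0.59 ± 0.11, adjusted p = 3.08e-04).

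Of 23 cell-cycle inhibitors and p53 pathway genes 7 rose and 1 fell. Trp53 was at 12.3, 9.99, 12.7 and 10.2 CPM with saline and 16.9, 15, 17.4, 17 and 15.9 CPM with dexamethasone. The lowest treated library was above the highest saline one (0.54 ± 0.0992, adjusted p = 2.95e-04). With Cdkn1a and Eda2r, both p53 targets, the death effector Bax (0.60 ± 0.15, adjusted p = 0.00647), the p53 antagonist Mdm2, Cdkn1b (0.65 ± 0.18, adjusted p = 0.0143, lost without saline replicate 4) and Btg1 (0.37 ± 0.12, adjusted p = 0.0283, lost without dexamethasone replicate 2 or 3 or saline replicate 1 or 3) rose. The death effector Pmaip1 was low, at 0.252, 0.806, 0.357 and 0.501 CPM with saline and 0.0902, 0.196, 0.143, 0.0303 and 0.232 CPM with dexamethasone, and fell (-1.78 ± 0.43, adjusted p = 0.00446). Of the proliferation genes 0 rose and 7 fell of 21 tested, against 6.92% of all genes (0 rose and 4 fell without saline replicate 3 or 4). Top2a, the topoisomerase of dividing cells, was at 0.935, 0.774, 0.988 and 1.05 CPM with saline and 0, 0.0783, 0.0358, 0.0303 and 0.203 CPM with dexamethasone (-3.64 ± 0.44, adjusted p = 1.13e-06). The proliferation marker Mki67 was at 1.26, 2.26, 1.76 and 2.14 CPM with saline and 0.451, 0.588, 0.394, 0.636 and 0.0871 CPM with dexamethasone (-2.11 ± 0.36, adjusted p = 1.26e-04). Both were low in every library and without overlap. Mcm5, a subunit of the replicative helicase (-0.85 ± 0.24, adjusted p = 0.014, lost without saline replicate 3), and cyclin D1, Ccnd1 (-0.73 ± 0.18, adjusted p = 0.00518), fell as well.

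All 9 tested genes of the MHC class II list fell, with a median of -1.30, where 6.92% of all genes tested fell. Most of them encode proteins with which antigen-presenting cells load peptides and show them to helper T cells. Those genes are normally switched on together by the coactivator CIITA. The list also holds the coactivator gene Ciita itself and the lysosomal protease gene Ctss. In bulk muscle, fewer cells of a type and less RNA per cell cannot be told apart. Since these genes fell together, promoter windows are shown for 2 of them, H2-Aa at chr17:34287774-34288073 (minus strand) and H2-Eb1 at chr17:34305617-34305916 (plus strand), RefSeq, GRCm38.p6, 250 bases before to 50 after the start, 5′ to 3′ on the gene's strand. Capitals mark CCAAT, or ATTGG on the other strand, the motif that lies in the conserved Y box of class II promoters.
H2-Aa: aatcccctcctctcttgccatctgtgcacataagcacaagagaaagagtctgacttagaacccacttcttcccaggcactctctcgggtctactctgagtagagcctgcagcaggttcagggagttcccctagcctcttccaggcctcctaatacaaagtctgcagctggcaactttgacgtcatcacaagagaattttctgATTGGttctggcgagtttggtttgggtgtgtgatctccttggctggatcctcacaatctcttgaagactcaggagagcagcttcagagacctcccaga
H2-Eb1: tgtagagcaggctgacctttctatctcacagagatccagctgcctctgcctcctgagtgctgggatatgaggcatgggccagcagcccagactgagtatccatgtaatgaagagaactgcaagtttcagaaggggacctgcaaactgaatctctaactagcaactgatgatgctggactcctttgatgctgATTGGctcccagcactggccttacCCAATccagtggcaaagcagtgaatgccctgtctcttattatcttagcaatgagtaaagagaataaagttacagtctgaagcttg
Counted from the start, the match begins at -48 in H2-Aa, and the matches at -59 and -35 in H2-Eb1. Of 6 list members with a window, 5 held the motif, which is common: it stood in 37.4% of all windows, in 42.6% of the matched genes tested, in 40.8% of those that rose and in 44.5% of those that fell.

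H2-Aa, an alpha chain, was at 38.5, 40.9, 37.1 and 27.2 CPM with saline and 14.1, 14.8, 13.7, 15.8 and 9.5 CPM with dexamethasone (-1.41 ± 0.22, adjusted p = 5.17e-05). H2-Ab1, its beta chain, was at 30.5, 40.4, 37.7 and 17.1 CPM with saline and 13, 13.8, 12.1, 13.8 and 7.23 CPM with dexamethasone (-1.40 ± 0.24, adjusted p = 2.08e-04). H2-Eb1, a beta chain of the other class II molecule, was at 15.5, 19.3, 19.2 and 18.4 CPM with saline and 7.7, 7.48, 6.81, 7.76 and 5.63 CPM with dexamethasone (-1.35 ± 0.21, adjusted p = 4.4e-05). In each the highest treated library lay below the lowest saline one, and dexamethasone replicate 5 was the lowest library. Cd74, the invariant chain that escorts class II molecules, was at 76.8, 78.6, 88.2 and 52 CPM with saline and 34.6, 32.4, 30.9, 33.5 and 19.1 CPM with dexamethasone, with the same gap. The coactivator Ciita was at 1.83, 2.38, 1.59 and 1.78 CPM with saline and 0.993, 0.666, 1.11, 0.879 and 0.755 CPM with dexamethasone, low but without overlap (-1.10 ± 0.28, adjusted p = 0.0071). The peptide-loading genes H2-DMa (-0.98 ± 0.19, adjusted p = 5.98e-04) and H2-DMb1 (-0.81 ± 0.25, adjusted p = 0.0257, lost without dexamethasone replicate 3 or 5 or saline replicate 2), the loading modulator H2-Ob (-1.61 ± 0.37, adjusted p = 0.00331) and the invariant-chain protease Ctss fell as well. Each library's sum over the 9 genes was 144 to 222 CPM with saline and 56.9 to 85.6 CPM with dexamethasone. Of the class I genes 0 rose and 2 fell of 11 tested (1 rose and 4 fell without saline replicate 1). B2m, the light chain of class I, was at 132, 156, 151 and 161 CPM with saline and 118, 116, 93.7, 116 and 117 CPM with dexamethasone (-0.42 ± 0.10, adjusted p = 0.00652). Nlrc5, the class I coactivator, was at 3.16, 3.71, 3.4 and 4.42 CPM with saline and 2.38, 1.76, 1.76, 2.15 and 2.27 CPM with dexamethasone (-0.82 ± 0.20, adjusted p = 0.00602), and neither gene's groups overlapped.

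Some markers of antigen-presenting cells fell beside the class II genes, where 6.92% of all genes tested fell. Of 20 macrophage markers 12 fell and 0 rose (median -0.69), and no log2 difference was positive. The summed level was 353 to 639 CPM with saline and 271 to 332 CPM with dexamethasone, and no member was at 0 in all libraries. Without saline replicate 2, which had the highest sum, 3 of the 20 fell, and without the ML1716 libraries 13 fell. Folr2, the folate receptor of resident macrophages, was at 10.2, 15.9, 10.8 and 12.2 CPM with saline and 7.07, 5.8, 5.73, 5.73 and 6.91 CPM with dexamethasone (-0.97 ± 0.14, adjusted p = 9.85e-06; 63.1% of its exon bases overlap Gm10602). Cd14, the lipopolysaccharide co-receptor, was at 2.59, 5.38, 3.1 and 3.65 CPM with saline and 1.44, 1.25, 1.25, 1.97 and 2.09 CPM with dexamethasone, highest in saline replicate 2 (-1.19 ± 0.30, adjusted p = 0.00733, lost without saline replicate 2). Itgam (-0.81 ± 0.20, adjusted p = 0.0071, lost without saline replicate 2; 68.7% of its exon bases overlap Gm49368) and Mpeg1 (-0.69 ± 0.20, adjusted p = 0.0168, lost without saline replicate 2) fell, with log2 differences of -0.53 and -0.38 without saline replicate 2, while the values of Mrc1 (-0.35 ± 0.14, adjusted p = 0.0876), Lyz2 (-0.47 ± 0.19, adjusted p = 0.0928) and Tyrobp (-0.57 ± 0.21, adjusted p = 0.066) did not pass. Of 6 dendritic cell markers 3 fell. Itgax was at 1.11, 1.42, 1.56 and 1 CPM with saline and 0.361, 0.313, 0.251, 0.182 and 0.407 CPM with dexamethasone. Treated libraries stayed under every saline library (-2.07 ± 0.27, adjusted p = 4.08e-06). Clec9a was at 0.647, 0.645, 0.466 and 0.273 CPM with saline and 0.18, 0.157, 0.107, 0.0606 and 0.0581 CPM with dexamethasone. The groups were apart (-2.18 ± 0.44, adjusted p = 8.83e-04). Xcr1 was at 0.216, 0.0645, 0.302 and 0.137 CPM with saline and 0, 0.0783, 0.0358, 0.0606 and 0 CPM with dexamethasone, close to the limit of detection and with overlap (-2.37 ± 0.65, adjusted p = 0.0119, lost without saline replicate 3). The dendritic cell markers Zbtb46 (0.0299 ± 0.16, adjusted p = 0.934) and Cd209a (-0.20 ± 0.28, adjusted p = 0.704) overlapped between the groups. Dendritic cell markers summed to 7.06 to 8.7 CPM with saline and 5.29 to 6.7 CPM with dexamethasone. T and NK cell markers summed to 0.575 to 1.07 CPM with saline and 0.353 to 0.662 CPM with dexamethasone, B cell markers to 0.18 to 0.806 CPM with saline and 0.0902 to 0.43 CPM with dexamethasone, and neutrophil markers to 2.34 to 10.4 CPM with saline and 2.51 to 12.3 CPM with dexamethasone. None of the last 3 lists had a called member (1 neutrophil marker fell without dexamethasone replicate 5). What part the number of these cells plays in the falls was not tested.

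Some complement and interferon genes fell, where 6.92% of all genes tested fell. Of 20 complement genes 10 fell and 0 rose, with no positive log2 difference (0 rose and 5 fell without dexamethasone replicate 2 or 3, 0 rose and 6 fell without dexamethasone replicate 4, 0 rose and 3 fell without saline replicate 2). C1ra, a protease of the classical pathway, was at 23.3, 35.1, 32.7 and 23.8 CPM with saline and 18.1, 18.8, 16.7, 17.3 and 15.9 CPM with dexamethasone. Every dexamethasone library was the lower (-0.73 ± 0.0958, adjusted p = 4.14e-06). Factor B, Cfb, was at 12, 19.7, 12.8 and 11.3 CPM with saline and 7.25, 8.27, 6.24, 6.91 and 9.79 CPM with dexamethasone. All treated libraries lay below all saline ones (-0.86 ± 0.19, adjusted p = 0.0017; 79.5% of its exon bases overlap Gm20547). The C1q chains C1qa (-0.70 ± 0.23, adjusted p = 0.0364, lost without dexamethasone replicate 2, 3, 4 or 5 or saline replicate 2 or 3), C1qb (-0.74 ± 0.23, adjusted p = 0.0311, lost without dexamethasone replicate 2, 3 or 4 or saline replicate 2 or 3) and C1qc (-0.79 ± 0.22, adjusted p = 0.0132, lost without saline replicate 2), which macrophages make and which are counted in that list too, lost their calls in more fits. Without saline replicate 2 the log2 differences of C1qa and C1qb were -0.39 and -0.45. Of 34 interferon response genes 2 rose and 12 fell (1 rose and 6 fell without saline replicate 4; 1 rose and 8 fell without the ML1716 libraries). The guanylate-binding protein Gbp5 was at 7.48, 8.19, 10.3 and 10.8 CPM with saline and 4.27, 4.19, 4.55, 4.82 and 3.66 CPM with dexamethasone (-1.09 ± 0.18, adjusted p = 9.02e-05), and Gbp3 (-1.01 ± 0.18, adjusted p = 2.95e-04) and Gbp4 (-0.99 ± 0.21, adjusted p = 0.00179) fell with it. Iigp1 was at 18.9, 25.3, 20.4 and 30 CPM with saline and 13.2, 10.5, 10, 13.2 and 8.74 CPM with dexamethasone (-1.08 ± 0.31, adjusted p = 0.0202, lost without saline replicate 4). The macrophage and dendritic cell factor Irf8 fell (-0.68 ± 0.16, adjusted p = 0.00401, lost without saline replicate 2), while Irf2 rose (0.44 ± 0.11, adjusted p = 0.00779). Il15, a cytokine that muscle fibres make, was at 4.53, 4.64, 5.49 and 6.79 CPM with saline and 3.7, 2.58, 3.15, 2.48 and 2.96 CPM with dexamethasone. The highest treated library was below the lowest saline one (-0.84 ± 0.19, adjusted p = 0.00214). Of 26 NF-kB and inflammation genes 1 rose and 3 fell (0 rose and 1 fell without saline replicate 3).

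**Figure D3:**
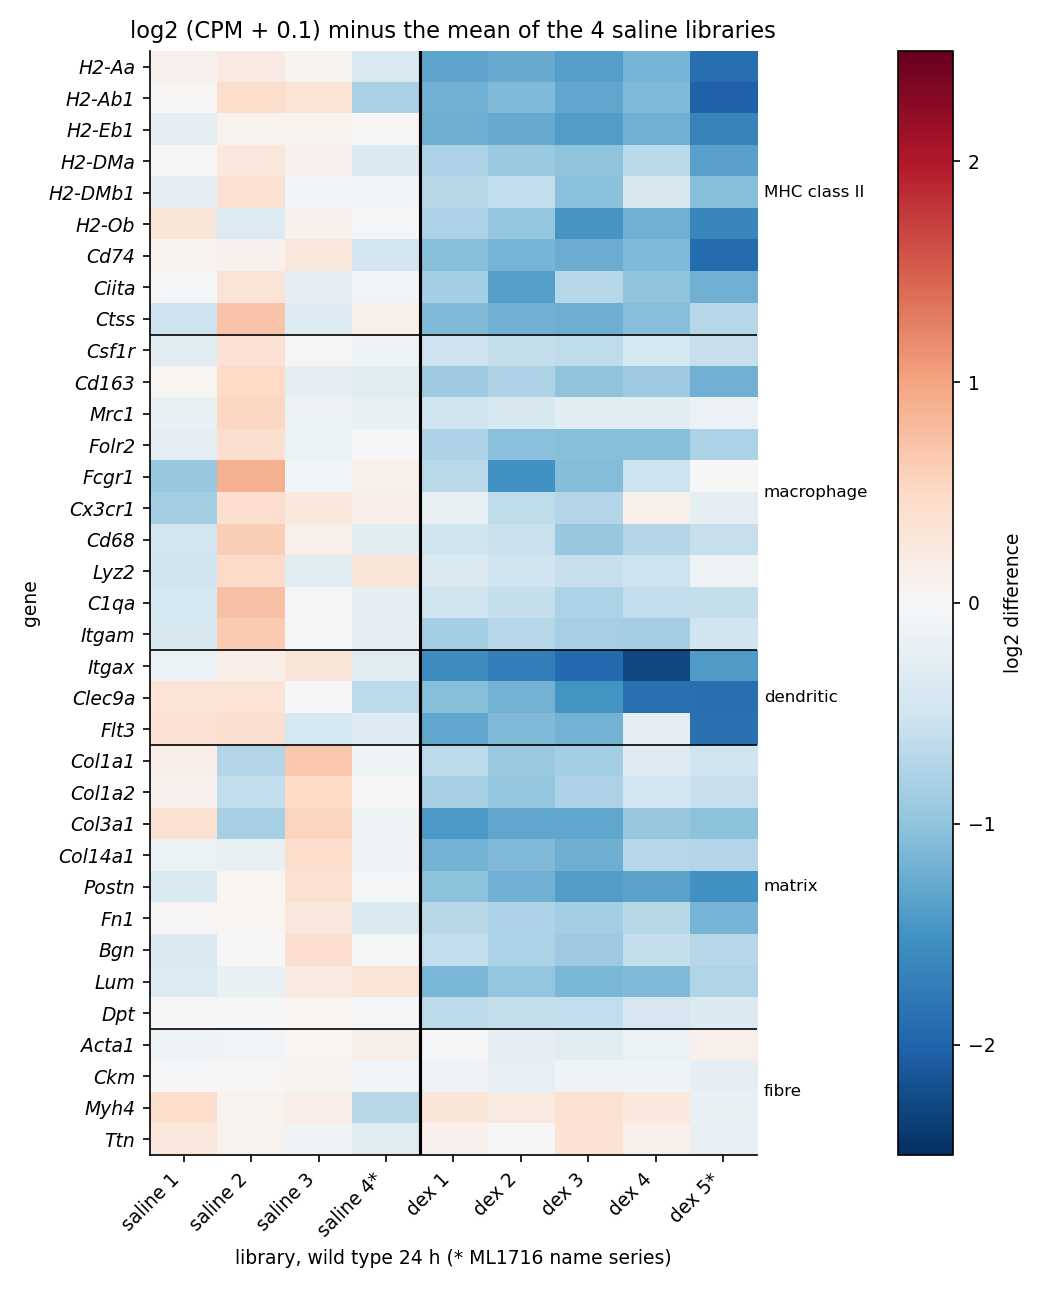
Heat map of log2(CPM + 0.1) minus the mean of the 4 saline libraries, with genes in rows and the 9 libraries in columns. Rows are grouped as MHC class II, macrophage, dendritic cell, matrix and fibre genes. All 9 tested class II genes are shown, and the other groups hold chosen members. The dendritic cell markers Xcr1, which fell, and Zbtb46 and Cd209a, which did not pass the threshold, are not shown. An asterisk marks the ML1716 libraries. Red is above and blue below the saline mean. The class II rows are blue in all 5 treated columns, macrophage and matrix rows are paler and more uneven, and the fibre rows stay near white.

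Genes of the extracellular matrix, the scaffold of collagens and glycoproteins around the fibres, were called lower more than higher. Among all genes tested 6.75% rose and 6.92% fell. Of 28 collagen genes 1 rose and 7 fell (0 rose and 3 fell without saline replicate 3); the rise was that of the basement membrane chain Col4a1 (0.44 ± 0.14, adjusted p = 0.036, lost without dexamethasone replicate 1, 4 or 5 or saline replicate 2, 3 or 4). Col3a1, the fibrillar collagen of compliant tissue, was at 249, 108, 283 and 177 CPM with saline and 70.6, 78.1, 77.5, 99.8 and 94.2 CPM with dexamethasone. The groups did not overlap, and saline replicates 1 and 3 were the highest (-1.28 ± 0.26, adjusted p = 9.99e-04). Col14a1, which links fibrils, was at 17, 16.8, 25.7 and 17.8 CPM with saline and 8.27, 8.81, 8.06, 11.6 and 11.5 CPM with dexamethasone. No treated library reached up to saline (-1.003 ± 0.16, adjusted p = 4.23e-05). Col1a2 (-0.77 ± 0.21, adjusted p = 0.0145, lost without saline replicate 3), Col6a2 (-0.76 ± 0.19, adjusted p = 0.00656, lost without saline replicate 3) and Col6a5 (-1.17 ± 0.29, adjusted p = 0.00537) fell, while Col1a1 was at 79.2, 42.8, 112 and 65.7 CPM with saline and 45, 37.4, 39.1, 56.6 and 50.1 CPM with dexamethasone, with overlap, and did not pass (-0.72 ± 0.28, adjusted p = 0.0942). Of 28 matrix glycoproteins and proteoglycans 1 rose and 10 fell. Periostin, Postn, was at 13.8, 18.7, 23.6 and 17.8 CPM with saline and 8.87, 7.87, 6.88, 7.15 and 6.33 CPM with dexamethasone (-1.32 ± 0.29, adjusted p = 0.00256). The proteoglycan gene Bgn was at 92.2, 120, 159 and 114.9 CPM with saline and 77.6, 69.3, 63.7, 78.6 and 72.7 CPM with dexamethasone (-0.75 ± 0.16, adjusted p = 0.00145), and neither gene's groups overlapped. The rise was that of Thbs1, which encodes the matricellular protein thrombospondin 1, at 20.2, 17.5, 18.9 and 19.2 CPM with saline and 52.1, 36.9, 51.6, 57.5 and 27.6 CPM with dexamethasone (1.25 ± 0.28, adjusted p = 0.00281). Of 30 remodelling enzymes and inhibitors 2 rose and 7 fell. The gelatinase Mmp9 was at 5.21, 4.77, 4.11 and 1.91 CPM with saline and 7.79, 7.87, 9.32, 10.2 and 6.07 CPM with dexamethasone and rose (1.02 ± 0.22, adjusted p = 0.00145). The procollagen protease enhancer Pcolce was at 39.1, 36.3, 56.7 and 37.5 CPM with saline and 26.2, 26.1, 23.1, 28.7 and 29.3 CPM with dexamethasone (-0.67 ± 0.13, adjusted p = 4.23e-04). The collagen-degrading cathepsin Ctsk was at 5.57, 5.45, 7.68 and 6.01 CPM with saline and 2.74, 3.1, 3.51, 2.97 and 4.47 CPM with dexamethasone (-0.88 ± 0.19, adjusted p = 0.00148). Both fell without overlap. Of 14 fibroblast markers 6 fell and 0 rose, among them Dpt (-0.53 ± 0.11, adjusted p = 8.12e-04), Smoc2 (-0.73 ± 0.11, adjusted p = 3.72e-05) and Islr (-0.67 ± 0.12, adjusted p = 1.55e-04), and the list's sum was 2723 to 3077 CPM with saline and 2682 to 2859 CPM with dexamethasone, so the summed ranges overlapped. Pdgfra, which defines the cells, was at 59.6, 68.4, 59.7 and 56 CPM with saline and 53.3, 53.3, 54.7, 60.3 and 46.7 CPM with dexamethasone (-0.18 ± 0.10, adjusted p = 0.252). Tendon markers had 0 of 8 called. The part of fibroblast number in the matrix falls was not tested.

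Of the vessel markers 2 rose and 1 fell of 16 endothelial genes (5 rose and 1 fell without dexamethasone replicate 5), close to the 13.7% called among all genes. Kdr, the main VEGF receptor, was at 52.9, 41.8, 39.3 and 51.4 CPM with saline and 65.1, 62, 69, 78.4 and 60.4 CPM with dexamethasone and rose (0.53 ± 0.13, adjusted p = 0.00519). Vwf, the von Willebrand factor gene, was at 38.5, 38.6, 45.4 and 44.6 CPM with saline and 25.5, 23.8, 22.9, 27.5 and 29.3 CPM with dexamethasone and fell (-0.69 ± 0.11, adjusted p = 7.04e-05), neither with overlap.

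Of 33 genes of fatty acid uptake, storage and oxidation 8 rose and 0 fell, where 6.75% of all genes rose (4 rose and 0 fell without saline replicate 3, 5 rose and 0 fell without saline replicate 4; 5 rose and 0 fell without the ML1716 libraries). Acot2, a mitochondrial thioesterase that releases free fatty acid from its CoA, was at 5.97, 6.06, 7.27 and 4.42 CPM with saline and 13.8, 21.1, 15.9, 15 and 19.6 CPM with dexamethasone. No treated library reached down to saline (1.51 ± 0.29, adjusted p = 5.67e-04). Its close paralog Acot1 rose too (1.62 ± 0.44, adjusted p = 0.0117, lost without saline replicate 3), and reads may be shared between them. Acsl1, the muscle acyl-CoA synthetase, was at 500, 464, 518 and 383 CPM with saline and 775, 827, 668, 658 and 719.8 CPM with dexamethasone (0.65 ± 0.13, adjusted p = 0.0011). The phosphatidate phosphatase Lpin1 was at 630.2, 455, 424 and 350.2 CPM with saline and 802, 669, 721, 658 and 789.8 CPM with dexamethasone (0.65 ± 0.15, adjusted p = 0.00293), and neither gene's groups overlapped. With them rose the scavenger receptor Cd36 (0.43 ± 0.13, adjusted p = 0.0281, lost without dexamethasone replicate 2 or saline replicate 3 or 4), Etfdh (0.38 ± 0.12, adjusted p = 0.0276, lost without dexamethasone replicate 2 or saline replicate 1, 3 or 4), Acsl6 (0.37 ± 0.11, adjusted p = 0.0221, lost without dexamethasone replicate 3 or 4 or saline replicate 3 or 4) and Plin5. Mlycd, which removes the malonyl-CoA brake on fat oxidation, was at 54.5, 47, 57.7 and 46.8 CPM with saline and 82.2, 78.7, 81.3, 72.7 and 102 CPM with dexamethasone (0.69 ± 0.14, adjusted p = 0.00119). The uncoupling protein gene Ucp2 was at 18, 26.8, 28.2 and 19.5 CPM with saline and 14.9, 18.8, 12.5, 12.8 and 12.8 CPM with dexamethasone and fell (-0.69 ± 0.14, adjusted p = 9.3e-04), with an overlap through dexamethasone replicate 2. Of 29 glucose and glycolysis genes 3 rose and 5 fell (2 rose and 3 fell without dexamethasone replicate 2 or saline replicate 3, 3 rose and 2 fell without dexamethasone replicate 3). The lactate exporter gene Slc16a3 rose, at 273, 164, 184 and 188 CPM with saline and 420.3, 291, 252, 304 and 511 CPM with dexamethasone, with an overlap through saline replicate 1 (0.82 ± 0.21, adjusted p = 0.00756). The glucose uptake inhibitor gene Txnip was at 672, 744, 629.7 and 673 CPM with saline and 1117, 1539, 1442, 1296 and 654 CPM with dexamethasone, where dexamethasone replicate 5 was within the saline range (0.83 ± 0.24, adjusted p = 0.0169, lost without dexamethasone replicate 2 or saline replicate 3; 0.99 without the ML1716 libraries). Tbc1d1, the Rab regulator of GLUT4 traffic, was at 81.2, 73.6, 76 and 52.1 CPM with saline and 34.2, 36.1, 32.1, 32.3 and 50.2 CPM with dexamethasone and fell without overlap (-0.93 ± 0.20, adjusted p = 0.00177).

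The counts for glycogen, amino acid and antioxidant genes stand against 6.75% of all genes that rose and 6.92% that fell. Of 20 glycogen genes 2 rose and 3 fell. Prkag3, the AMPK subunit of glycolytic fibres, was at 140.1, 108, 139 and 167 CPM with saline and 53.5, 44.1, 53.4, 63.7 and 77 CPM with dexamethasone. Treated libraries stayed under every saline library (-1.24 ± 0.17, adjusted p = 1.09e-05). The branching enzyme gene Gbe1 rose without overlap, at 93.3, 104, 93.1 and 94.1 CPM with saline and 153, 152, 141, 137 and 179.5 CPM with dexamethasone (0.67 ± 0.15, adjusted p = 0.00222). Of 35 amino acid transport and metabolism genes 3 rose and 2 fell (1 rose and 1 fell without saline replicate 3). Slc43a1, an exporter and importer of large neutral amino acids, was at 20.9, 22.3, 18.1 and 8.61 CPM with saline and 74.9, 85.1, 84.2, 54.6 and 18.2 CPM with dexamethasone, at 74.9 CPM or more in 3 treated libraries and inside the saline range in dexamethasone replicate 5 (1.85 ± 0.33, adjusted p = 3.41e-04; 1.88 without the ML1716 libraries). Slc38a4, a glutamine-family transporter, rose by 0.59 ± 0.16, adjusted p = 0.0103, lost without saline replicate 3. The fall beside Slc7a8 was that of asparagine synthetase, Asns (-0.66 ± 0.20, adjusted p = 0.0269, lost without dexamethasone replicate 3 or 4 or saline replicate 2, 3 or 4). Of 27 antioxidant genes 3 rose and 2 fell. Gclc, the rate-limiting enzyme of glutathione synthesis, was at 21, 15.1, 17.2 and 11.8 CPM with saline and 32.3, 34.8, 33.3, 27.3 and 18 CPM with dexamethasone, where saline replicate 1 was above dexamethasone replicate 5 (0.83 ± 0.16, adjusted p = 4.16e-04). Gsr, which recycles glutathione, was at 23.2, 25.9, 22.9 and 16.4 CPM with saline and 32.2, 37.7, 44, 39.6 and 28.2 CPM with dexamethasone. Treated libraries exceeded every saline library (0.72 ± 0.12, adjusted p = 1.42e-04). The thioredoxin reductase gene Txnrd1 rose by 0.46 ± 0.0905, adjusted p = 5.84e-04, and Gsta4 (-0.73 ± 0.14, adjusted p = 5.27e-04) and Gss (-0.44 ± 0.13, adjusted p = 0.0176, lost without dexamethasone replicate 2 or 3 or saline replicate 4) fell.

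Several large gene groups had no called member. None of the 78 ribosomal protein genes (median -0.0317), the 35 genes of respiratory complex I (-0.0594), the 14 of complexes II and III (-0.0481), the 14 of complex IV (-0.00538), the 17 of complex V (-0.0627), the 16 citrate cycle genes (-0.0584), the 14 slow-fibre genes (-0.20) or the 10 adipocyte markers (-0.36) passed the threshold. With 1 library left out, at most 2 members of any of these lists passed. A p above the threshold does not show that they were equal, and in the self-test a 1.5-fold change was found in 64% of the genes given one. The self-test had far fewer changed genes than the data and no libraries that stood apart. Its share need not hold for these lists. Of 34 sarcomere and Z-disc genes 2 rose and 2 fell, where 6.75% of all genes rose and 6.92% fell. Pdlim3, a Z-disc protein that binds alpha-actinin, was at 424, 338, 345 and 216 CPM with saline and 549, 506, 504, 541 and 446 CPM with dexamethasone. The groups did not overlap (0.62 ± 0.14, adjusted p = 0.00271). Pdlim5 rose (0.61 ± 0.16, adjusted p = 0.0107, lost without saline replicate 3), and Mybph and Myoz3 (-0.33 ± 0.0844, adjusted p = 0.00746) fell. The adult fast myosin Myh4 was at 67961, 53493, 56038 and 31150 CPM with saline and 61551, 59044, 65412, 60105 and 44080 CPM with dexamethasone and did not differ by the test (0.15 ± 0.16, adjusted p = 0.588). Embryonic myosin, Myh3, was at 2.34, 8.19, 4.39 and 5.42 CPM with saline and 1.8, 2.62, 2.15, 1.82 and 1.54 CPM with dexamethasone, highest in saline replicate 2, with overlap (-1.36 ± 0.30, adjusted p = 0.00226). Of the myogenic and satellite cell genes 3 rose and 3 fell of 13 (1 rose and 2 fell without dexamethasone replicate 3, 3 rose and 0 fell without saline replicate 2, 2 rose and 1 fell without saline replicate 3, 0 rose and 1 fell without saline replicate 4). Myod1 was at 24.2, 29.3, 24 and 12.3 CPM with saline and 18.1, 8.7, 9.14, 10.6 and 17.9 CPM with dexamethasone, with overlap (-0.80 ± 0.22, adjusted p = 0.0133, lost without saline replicate 2; -1.14 without the ML1716 libraries). Pax7, the defining satellite cell factor, was at 3.67, 4.74, 4.47 and 2.05 CPM with saline and 3.85, 4, 4.12, 3.67 and 2.5 CPM with dexamethasone (-0.0628 ± 0.24, adjusted p = 0.906). Of membrane excitability genes 2 rose and 5 fell of 23 (1 rose and 3 fell without saline replicate 2, 0 rose and 4 fell without saline replicate 3). The chloride channel gene Clcn1 was lower (-0.43 ± 0.12, adjusted p = 0.0179, lost without saline replicate 1 or 3). Asph, which encodes junctin among other products of the locus, was at 310.2, 188, 198 and 177 CPM with saline and 325, 359, 385, 371 and 327 CPM with dexamethasone (0.69 ± 0.12, adjusted p = 2.33e-04), all treated libraries above all saline ones.

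In most of the following lists of signal control and transcription the share called lay near or below the 13.7% of all genes. It was above that share for the dual-specificity phosphatases (5 of 17) and the angiogenic and hypoxia genes (6 of 23). Single members are described for their own values. Of 17 dual-specificity phosphatases, which switch off MAP kinases, 2 rose and 3 fell. Dusp2 was at 0.108, 0.226, 0.165 and 0.364 CPM with saline and 0.963, 1.21, 0.86, 0.788 and 0.639 CPM with dexamethasone (2.07 ± 0.41, adjusted p = 7.42e-04). Dusp7 was at 41.2, 82.9, 41.1 and 36.9 CPM with saline and 23.7, 21.1, 20.5, 20.3 and 19.2 CPM with dexamethasone (-1.27 ± 0.17, adjusted p = 7.91e-06). Neither gene's groups overlapped, and they moved in opposite directions. Of 18 KLF and C/EBP factors 2 rose and 1 fell (4 rose and 1 fell without dexamethasone replicate 5), with Klf10, an early TGF-beta response gene, at 17.3, 35.3, 26.6 and 19.7 CPM with saline and 69.6, 88.4, 70, 48.5 and 24.4 CPM with dexamethasone (1.28 ± 0.33, adjusted p = 0.00911; 1.39 without the ML1716 libraries). Its groups overlapped. Of 23 immediate early genes 0 rose and 3 fell (0 rose and 1 fell without dexamethasone replicate 3 or saline replicate 2 or 3). Arc was at 1.44, 2.48, 3.48 and 2.78 CPM with saline and 1.29, 0.627, 0.645, 0.849 and 1.31 CPM with dexamethasone (-1.41 ± 0.35, adjusted p = 0.00647). Of 31 Wnt pathway genes 1 rose and 3 fell: the receptor gene Fzd7 rose, at 59.4, 54.5, 46.1 and 45.2 CPM with saline and 67.7, 93.3, 119, 108 and 69.8 CPM with dexamethasone (0.83 ± 0.16, adjusted p = 4.23e-04), and the secreted antagonists Sfrp1 (-0.76 ± 0.17, adjusted p = 0.00192), Sfrp2 and Sfrp4 (-0.88 ± 0.27, adjusted p = 0.0248, lost without dexamethasone replicate 2, 3 or 4 or saline replicate 3; -0.53 without saline replicate 3) fell. Of 23 angiogenic and hypoxia genes 3 rose and 3 fell; the growth factor gene Vegfd, which the files list as Figf, rose by 0.74 ± 0.17, adjusted p = 0.00265, and Angptl2 (-0.78 ± 0.15, adjusted p = 3.66e-04) fell beside Hif3a. Of 24 genes of the endoplasmic reticulum stress response 1 rose, the stress factor Atf4 (0.60 ± 0.12, adjusted p = 0.00103), and 0 fell (2 rose and 1 fell without dexamethasone replicate 5, 2 rose and 0 fell without saline replicate 1). Of 42 translation factors 2 rose and 1 fell (5 rose and 1 fell without dexamethasone replicate 5), with the helicase Eif4a2 higher (0.48 ± 0.0926, adjusted p = 4.71e-04).

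**Figure D4:**
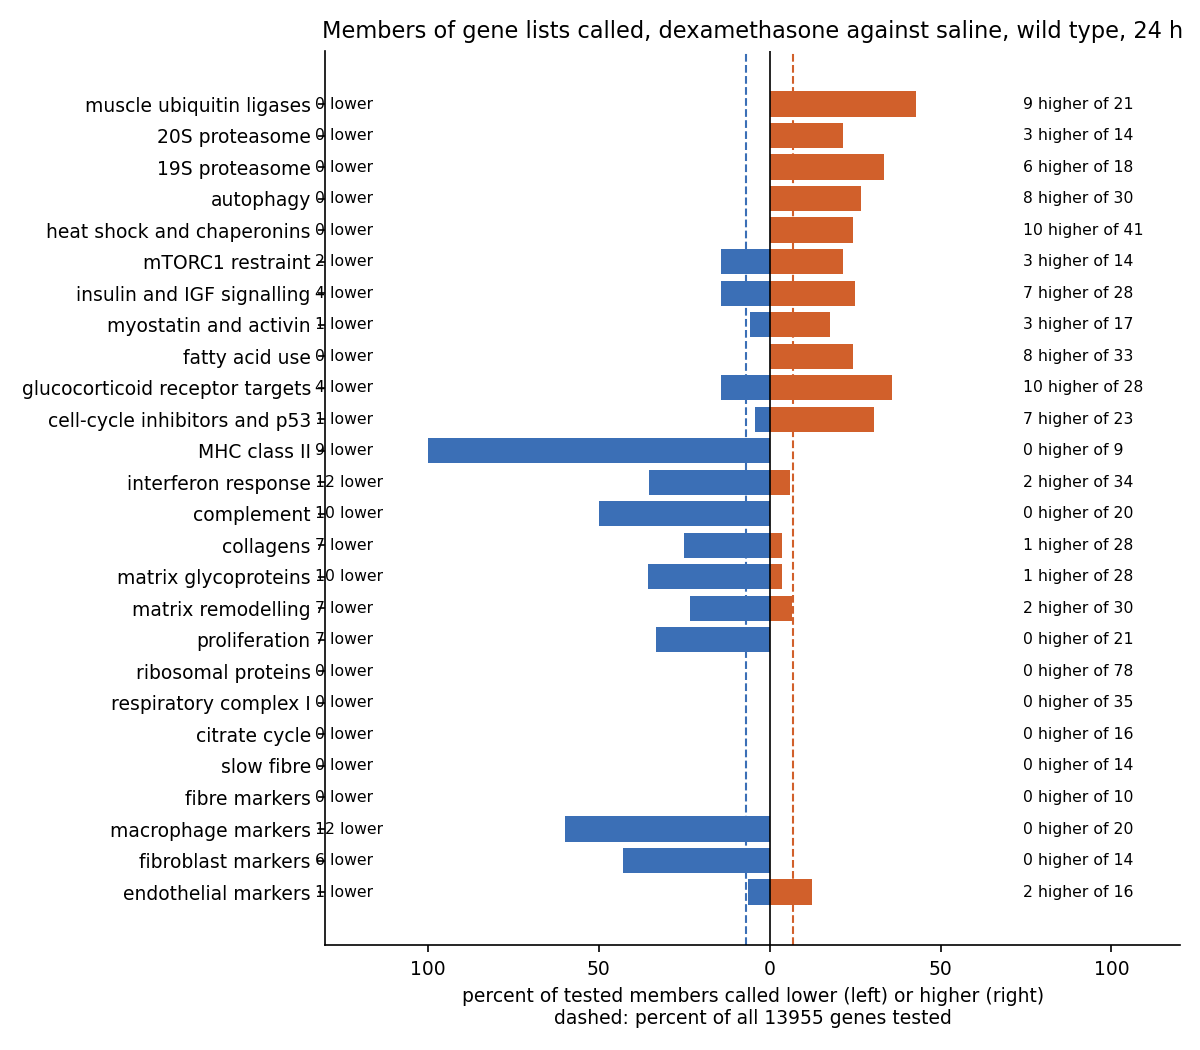
Percent of the tested members of 26 gene lists called higher (right, orange) and lower (left, blue) at 24 h, with the counts printed; dashed lines mark the share of all genes tested, 6.75% higher and 6.92% lower. All 9 MHC class II genes were lower, the ubiquitin ligase, proteasome, autophagy, heat shock and fatty acid lists had called members on the higher side alone, and the ribosomal protein, complex I, citrate cycle, slow fibre and fibre marker lists had none.

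The 24 h response was set against that at 3 h, which has its own dexamethasone and saline libraries. The difference between the 2 responses (24 h minus 3 h) was called for 2371 genes, 17% of those tested. Of the 1908 genes called at 24 h, 194 were also called in the same direction at 3 h (111 higher, 83 lower), and 133 of these had the larger log2 difference at 3 h. Another 215 were called at both times in opposite directions (87 higher and 128 lower at 24 h). For 728 there was no call at 3 h and the change between the times was called (377 higher, 351 lower), and the remaining 771 had no call at 3 h and no called change between the times. In the other direction, 1061 of the 2072 genes called at 3 h had no call at 24 h and a called change between the times.

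Among genes that kept their direction, Slc30a2 rose by 1.42 ± 0.18 at 3 h and 1.26 ± 0.16 at 24 h, Sesn1 by 1.35 ± 0.22 and 0.93 ± 0.20, and Orm3 by 6.65 ± 0.75 and 5.70 ± 0.64. The change with time missed the threshold for each (adjusted p = 0.699, 0.341 and 0.658). Ptprf was higher at both times and further from saline at 24 h (24 h minus 3 h 0.60 ± 0.19, adjusted p = 0.0224). Slc39a14 (3 h 2.65 ± 0.25) and Mt1 (3 h 2.95 ± 0.37) had come down from larger early rises (24 h minus 3 h -1.78 ± 0.32 and -1.64 ± 0.45, adjusted p = 1.45e-04 and 0.012). The early and late values thus differed by the test for Ptprf, Slc39a14 and Mt1 among these 6.

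Other genes crossed from 1 side of saline to the other, targets of the receptor among them. Ddit4 was higher by 5.30 ± 0.40 at 3 h and lower at 24 h (24 h minus 3 h -6.59 ± 0.49, adjusted p = 1.44e-10). Hif3a (3 h 2.05 ± 0.22), Slc7a8 (3 h 2.40 ± 0.21), Ucp2 (3 h 1.88 ± 0.16), Acvr1b (3 h 0.78 ± 0.12) and Per1 (3 h 0.71 ± 0.20) were each above saline at 3 h and below it at 24 h, with adjusted p for the change from 2.16e-11 (Slc7a8) to 4.17e-05 (Per1). The deubiquitinase-family gene Usp54 went from 1.99 ± 0.12 to -0.79 ± 0.10, the kinase gene Map3k6 from 2.13 ± 0.15 to -0.73 ± 0.14, and Fam117b from 2.24 ± 0.16 to -0.48 ± 0.14 (its 24 h call was lost without dexamethasone replicate 1 or 4 or saline replicate 2). The opposite crossing, lower at 3 h and higher at 24 h, was made by Pfkfb3 (3 h -1.32 ± 0.39), Pim1 (3 h -1.34 ± 0.22), Eda2r (3 h -1.19 ± 0.26), Neat1 (3 h -1.23 ± 0.15), Kdr (3 h -1.77 ± 0.14) and Nr1d1 (3 h -1.32 ± 0.23). Klf10 went from -2.30 ± 0.36 to 1.28 ± 0.33, and the Wnt receptor gene Fzd7 from -2.06 ± 0.17 to 0.83 ± 0.16.

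Late responders, with no call at 3 h and a called change, included most of the class II genes. Of the 9, 6 had a called change with time, with H2-Aa at -0.0785 ± 0.23, H2-Eb1 at 0.15 ± 0.22 and Cd74 at 0.14 ± 0.22 at 3 h. Already lower at 3 h were 2 of the 9, the peptide-loading gene H2-DMb1 and the coactivator Ciita (-2.13 ± 0.32, adjusted p = 5.71e-06). Fbxo32 (3 h -0.75 ± 0.32, adjusted p = 0.13; change 2.62 ± 0.45), Per2 (3 h 0.0648 ± 0.20), Top2a (3 h -0.00883 ± 0.36), Atg13 (3 h -0.0207 ± 0.0889), Ddi2 (3 h -0.36 ± 0.19) and Usp2 (3 h -0.23 ± 0.11) were of this kind. Of the macrophage markers 11 of 20 had a called change with time, against 17% of all genes. Of these markers, 3 higher and 3 lower were called at 3 h. Of the collagens 4 of 28 had a called change, near that share.

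**Figure D5:**
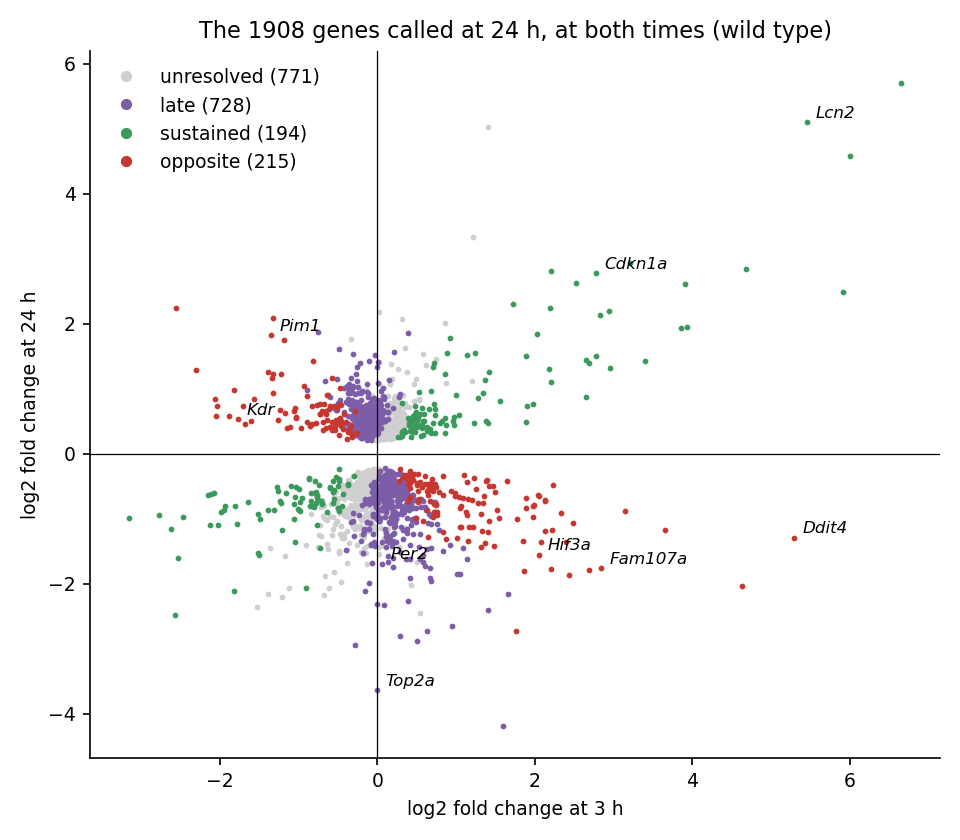
Log2 fold change at 24 h (y axis) against that at 3 h (x axis) for the 1908 genes called at 24 h: 194 called in the same direction at both times (green), 215 called in opposite directions (red), 728 not called at 3 h with a called change between the times (purple) and 771 with neither (grey). Red points lie at the upper left and lower right, with Ddit4, Fam107a and Hif3a far to the right below 0, and Lcn2 and Cdkn1a lie high on both axes.

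KO dexamethasone replicates 4 and 5 carry names of the series ML1716, and KO saline replicates 1 to 3 all carry names of ML1715. Wild type has 1 ML1716 library with each treatment. In KO a difference between the name series therefore cannot be fully told apart from one of dexamethasone. That limit holds for the KO calls, the shared calls and the genotype differences below. In KO muscle at 24 h 5.77% of genes tested rose (805) and 4.97% fell (694), against their own saline libraries. Of the calls, 806 were shared, all in the same direction, which is 42.2% of the wild-type and 53.8% of the KO calls. For 1823 of the 1908 wild-type calls (95.5%) the KO log2 difference had the same sign, and for 1403 it was the smaller of the pair. These genes were picked by their wild-type call, which favours large wild-type values. The count of 1403 therefore does not compare the sizes of the genotypes' responses. The difference between the genotypes' responses was called for 1 gene, 2310022B05Rik, with 844 genes under an unadjusted p of 0.05 in edgeR's test, 3 calls by DESeq2 and 0 calls under some other settings given in the closing section. In wild type the gene was at 14.6, 15.1, 13.5 and 17.1 CPM with saline and 23.5, 24.6, 22.4, 25.4 and 30.4 CPM with dexamethasone (0.75 ± 0.11, adjusted p = 2.88e-05), and in KO its log2 difference was 1.67 ± 0.13 (KO minus wild type 0.92 ± 0.17, adjusted p = 0.0465). The next smallest p-values for the difference belonged to the estrogen sulfotransferase gene Sult1e1 (wild type -2.74 ± 0.50, KO 0.92 ± 0.60, adjusted p of the difference = 0.204), Map9 (-0.92 ± 0.14, 0.00093 ± 0.16, 0.432), the collagen gene Col19a1 (0.56 ± 0.17, -0.45 ± 0.17, 0.432) and the kinase gene Stk24 (0.95 ± 0.12, 0.23 ± 0.13, 0.527). None of these passed, and the wild-type call of Col19a1 was lost without dexamethasone replicate 1 or 3 or saline replicate 2 or 3.

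Of the leading wild-type genes, Mylk4 (-1.51 ± 0.21), Gnmt (2.52 ± 0.40), Eda2r (2.09 ± 0.28), Tnfrsf19 (1.72 ± 0.23), H2-Ab1 (-1.69 ± 0.26), Efcab6 (-1.46 ± 0.14) and Asb15 (-1.16 ± 0.20) had like log2 differences in KO. Others had smaller KO values without a called difference between the genotypes: Orm3 (2.85 ± 0.93; difference adjusted p = 0.788), Pim1 (0.83 ± 0.24; 0.742), Slc27a3 (0.23 ± 0.29; 0.732), Acot2 (0.41 ± 0.31; 0.788), Fzd7 (0.11 ± 0.17; 0.742) and Pdk4 (-0.15 ± 0.39; 0.788). In KO 11 of the 41 heat shock genes rose and 0 fell, 0 and 7 of the 9 class II genes, 9 and 0 of the 14 core proteasome genes, 0 and 1 of the 20 macrophage markers and 0 and 7 of the 28 collagens. No test of a difference was made between these counts. The KO values and counts also carry the limit of the name series given above. In wild type the 14 core proteasome genes summed to 1224 CPM in saline replicate 4, against 978 to 1012 CPM in the other saline libraries. With dexamethasone the sum was 1322 CPM in replicate 5, against 1131 to 1173 CPM in the others. What part the name series plays in the KO counts was not tested.

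The authors' deposited table for the wild-type 24 h comparison lists 12885 genes, 2170 of them with an adjusted p under 0.05 (960 higher, 1210 lower). Of those, 1436 were also called here, all in the same direction, which is 75.3% of the calls here and 66.2% of the calls in the authors' deposited table.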

How the data were processed

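RNA of the quadriceps was sequenced on an Illumina HiSeq from libraries of a TruSeq RNA kit, which keeps no strand, per the labels' protocols. The deposited files hold raw read counts per gene, and STAR, HTSeq, limma 3.40.6 and the mouse genome mm10 are named in the submitters' processing notes, with no role stated. The annotation, and whether counting used strand, is not given in the sources used here. Reads in no gene (26.8 to 33.2% in the 9 libraries) or in several genes were left out. The authors' deposited comparison gives log2 fold changes and p-values per gene, with the columns of limma's output per the file headers. It was used only for the overlap of calls.

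Counts of all 33 libraries in 8 groups were fitted with edgeR 4.0.16 in R 4.3.3 (TMM factors, filterByExpr, robust quasi-likelihood test, Benjamini-Hochberg threshold of 0.05), and 13955 of 23420 genes passed the filter. CPM uses TMM-scaled library sizes, and the standard error is the log2 difference over the square root of F. Alternatives were DESeq2 1.42.0, limma-voom (limma 3.58.1) with sample weights, other scalings and filters, the 9 libraries alone, the ML1716 libraries left out (5 in the series) or their name as a term, each of the 9 libraries left out, and a threshold of 0.01. On simulated counts of 13818 genes for this comparison the fit found 93% of 100 genes changed 2-fold and 64% of 100 changed 1.5-fold, with 4 unchanged genes among 161 calls. The simulated counts held no difference between name series. Measures of whole libraries were compared with two-sided exact permutation tests.

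Replicates were numbered in accession order. The comparison and the 77 gene lists were chosen with earlier results of these data known. Genes were named by rule: the 15 largest rises and falls with a mean log2 CPM of 1 or more, no overlap and a call whichever library was left out; the 8 that gained and lost most CPM; the 5 smallest p-values in a list and members with a known role; and the 8 smallest p-values of each difference between responses. Which further list members to describe was decided with their values known. Genes named only by a clone number were passed over among the largest changes (1 rise, 2 falls). Coordinates and exon overlaps come from the GENCODE M21 annotation of GRCm38 (13147 genes matched), and promoter windows and their starts from RefSeq on GRCm38.p6. A few genes that the naming rule picks are not reported here.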

Additional observations from a re-analysis of the deposited data

Results flagged for a closer look

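Of 120 checks for a library far from the rest of its group, 7 stood out, near the 1 in 20 that the cutoff allows. The checks share the same libraries, and most of the 7 fell on the same one. Dexamethasone replicate 5, of the ML1716 name series, was the lowest treated library for Fbxo32 (603 CPM, next 1930), H2-Ab1 (7.23, next 12.1), Col19a1 (2.12, next 3.96) and Stk24 (42.9, next 64). The other 3 were Sfrp2 in saline replicate 3 (7.82 CPM, next 3.74), Usp54 in dexamethasone replicate 3 (13.9 CPM, next 11.4) and the share of counts in the 10 most abundant genes in dexamethasone replicate 2 (23.4%, next 24.4%).

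The response at 24 h differed from that at 3 h, by the test of the difference itself, for 36 named genes; values are log2, 24 h minus 3 h. Among genes higher at 24 h the difference was 0.6 for Ptprf, 3.41 for Pfkfb3, 3.17 for Pim1, 2.93 for Eda2r, 2.1 for Tnfrsf19, 1.35 for Slc27a3, 2.62 for Fbxo32, 1.91 for Neat1, 2.89 for Fzd7, 2.3 for Kdr and 0.62 for 2310022B05Rik. Among MHC class II genes it was -1.33 for H2-Aa, -1.32 for H2-Ab1 and -1.5 for H2-Eb1. Among clock, hypoxia and transport genes it was -1.76 for Per2, -3.61 for Hif3a, -3.77 for Slc7a8 and -2.58 for Ucp2. For Fam107a it was -4.61, for Sult1e1 -4.5, for Map3k6 -2.85, for Usp54 -2.78, for Fam117b -2.72, for Sfrp2 -2.33 and for Golga7b -2.24. For muscle and other genes it was -2.1 for Mybph, -1.97 for Cdh4, -1.61 for Rnf144b, -1.39 for Cpxm1, -1.35 for Tgtp2, -1.32 for Efcab6, -1.21 for Tprn, -1.06 for Asb15, -0.614 for Map9, -0.529 for Ampd1 and -0.481 for Gpd1. The response differed between the genotypes for 1 gene, 2310022B05Rik (KO minus wild type 0.923). In KO the ML1716 name series stands among the dexamethasone libraries alone, so its part in this difference cannot be told apart.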

How the results depend on the processing

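Over 1536 named and listed genes and 18 settings, no log2 difference that was called reversed its sign; 26576 of the values stayed on the same side of the threshold, 640 lost and 361 gained a call. Leaving out 1 library gave 1228 to 2247 genes called (saline replicate 3 and dexamethasone replicate 5), 574 to 1179 higher, 654 to 1068 lower and 271 to 425 changed at least 2-fold. Limma-voom with sample weights called 3001 (1547 higher, 1454 lower), and a threshold of 0.01 left 917 (463 higher, 454 lower, 216 at least 2-fold). The change with time was called for 1953 to 2758 genes with 1 library left out, for 3613 by limma-voom and for 1353 at 0.01. The genotype difference was called for 0 genes with RLE factors, library totals, a CPM filter of 1 in 4 libraries, the name series as a term, or a threshold of 0.01, for 3 by DESeq2, and for 0 to 4 with 1 library left out; the cause of these shifts was not tested. Other settings stayed within 1.5 times the counts reported. Library totals gave 38.7% of calls higher, against 49.4%. Fits of the 9 libraries alone gave no time or genotype value. No paired analysis was possible because no label numbers the replicates. Depth limits low genes: Xcr1, at most 0.302 CPM in the 9 libraries, rests on a few reads a library.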

Other observations

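Several genes of smaller groups changed, and were picked with their values known. Acetylcholinesterase, Ache, which ends transmission at the neuromuscular junction, was at 24.2, 22.1, 27.9 and 28.5 CPM with saline and 17, 16.5, 17.7, 19.5 and 20.3 CPM with dexamethasone and fell (-0.49 ± 0.13, adjusted p = 0.0107). The calcium release channel gene Itpr1 was at 66.5, 63.8, 77.8 and 119.8 CPM with saline and 51.4, 50.6, 54, 51.6 and 52.5 CPM with dexamethasone and fell (-0.65 ± 0.12, adjusted p = 4.16e-04; -0.41 without saline replicate 4). The muscle potassium channel gene Kcna7 was at 229.5, 196, 219 and 203 CPM with saline and 129, 145, 134, 145 and 185 CPM with dexamethasone and fell (-0.52 ± 0.0993, adjusted p = 4.35e-04). The chemokine gene Cxcl14 was at 42, 57.4, 57.3 and 47.2 CPM with saline and 36.5, 38.7, 28, 31.4 and 32.9 CPM with dexamethasone and fell (-0.61 ± 0.14, adjusted p = 0.0033). The mitochondrial import gene Timm9 was at 6, 5.77, 5.57 and 8.06 CPM with saline and 7.37, 9.09, 8.53, 9.7 and 12 CPM with dexamethasone and rose (0.56 ± 0.14, adjusted p = 0.00497). The groups overlapped for Timm9 and did not for the other 4.

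The calls of 3 other genes were lost when 1 of several libraries was left out. Ccl8, a monocyte chemokine, was at 0.216, 2.97, 0.384 and 1.14 CPM with saline and 0.18, 0.117, 0.107, 0.0606 and 0.552 CPM with dexamethasone (-2.45 ± 0.83, adjusted p = 0.0469, lost without dexamethasone replicate 1, 2, 3 or 4 or saline replicate 2 or 4). Its log2 difference was -1.35 without saline replicate 2. Tmem8c, which encodes the fusion protein myomaker, was at 0.144, 0.774, 0.686 and 0.319 CPM with saline and 0.0602, 0.0783, 0.0358, 0.0303 and 0.145 CPM with dexamethasone (-2.73 ± 0.58, adjusted p = 0.00138, lost without saline replicate 2, 3 or 4). Odc1, the rate-limiting enzyme of polyamine synthesis, was at 175, 184, 157 and 121 CPM with saline and 292, 288, 245, 199 and 326 CPM with dexamethasone (0.76 ± 0.24, adjusted p = 0.0293, lost without dexamethasone replicate 1, 2 or 5 or saline replicate 3 or 4). The groups overlapped for Ccl8 and Tmem8c and did not for Odc1.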
